A study of Homo sapiens with 36 samples.

Results

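A549 cells, a human lung adenocarcinoma line, were compared after 16 h and after 6 h in medium with 25 mM glucose. The comparison takes 18 of the 36 RNA sequencing libraries of the series, 9 at each time, and each was assigned by its labels for glucose, time and siRNA. At each time 3 libraries came from cells given siRNA against ATF4 (siATF4), 3 from cells given siRNA against ATF6 (siATF6) and 3 from cells given a control siRNA (siControl), all at 100 nM and put into fresh medium 48 h after seeding. All 6 groups shared the same medium, which held 10% dialysed serum and 2 mM glutamine. The remaining 18 libraries came from cells without glucose (0 mM) and serve here to check labels and as added libraries in alternative fits. High glucose is the control condition of the series, so the contrast asks how cells that were not deprived differed between the 2 times. The labels do not say whether a 16 h and a 6 h well came from 1 transfected culture. Time in the medium, time since transfection and the well itself cannot be told apart.

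Gene programmes with known regulators organise the results. ATF4 is the transcription factor of the integrated stress response. When the initiation factor eIF2 is phosphorylated, ATF4 protein is made and turns on genes of amino acid synthesis, amino acid import and tRNA charging, together with the stress regulators CHOP (gene DDIT3), TRIB3 and CHAC1. ATF6 belongs to the unfolded protein response and raises chaperones that work in the endoplasmic reticulum (ER). Heat shock factor 1 drives the cytosolic chaperones. The circadian clock runs on a loop in which CLOCK and BMAL1 (gene ARNTL) switch on the PER and CRY repressors, and a serum change is a classic way to set its phase in cultured cells.

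Stretches from 8 genes, each within the 250 bases before an annotated transcript start, show the letters through which these factors are known to bind. They are printed because such letters are known for the 3 programmes described in most detail below (ATF4, heat shock and clock). Other list members with a match are not printed, among them NR1D2, a clock gene whose change with time was not called. Whether a match goes with a change was not tested. Those of CHAC1, CEBPG, HSPA8, HSP90AB1 and TEF precede a later start and lie inside the span of the gene. They are taken from RefSeq (GRCh38.p14), read 5′ to 3′ on the strand of the gene. Capitals mark TGATGNAA, the composite site bound by ATF4 with C/EBP partners, in the first 3, GAANNTTCNNGAA, a heat shock element, in the next 3, and CACGTG, an E-box, in the last 2. Both strands were searched, so a match may appear as its reverse complement, and matches may overlap. Where an exon is annotated across the match, 30 bases are given, and elsewhere the stretch without an exon.
CHAC1, chr15:40953251-40953280, plus strand: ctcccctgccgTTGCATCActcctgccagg
ATF3, chr1:212565157-212565333, plus strand: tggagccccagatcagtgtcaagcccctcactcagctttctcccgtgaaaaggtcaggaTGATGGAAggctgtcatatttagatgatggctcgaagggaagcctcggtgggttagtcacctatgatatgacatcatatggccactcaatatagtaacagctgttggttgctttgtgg
CEBPG, chr19:33373896-33374112, plus strand: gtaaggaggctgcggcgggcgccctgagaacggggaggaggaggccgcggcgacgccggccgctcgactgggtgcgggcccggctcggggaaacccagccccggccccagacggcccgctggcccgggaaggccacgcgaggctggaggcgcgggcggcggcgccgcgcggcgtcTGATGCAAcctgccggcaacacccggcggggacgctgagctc
HSPA8, chr11:123062171-123062200, minus strand: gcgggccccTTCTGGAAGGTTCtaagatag
CHORDC1, chr11:90223084-90223113, minus strand: accgGAAAATTCGCGAAGGTTCCTGAAacg
HSP90AB1, chr6:44247693-44247865, plus strand: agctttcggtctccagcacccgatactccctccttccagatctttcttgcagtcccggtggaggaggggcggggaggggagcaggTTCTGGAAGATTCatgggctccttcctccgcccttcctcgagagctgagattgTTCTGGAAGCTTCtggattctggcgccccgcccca
TEF, chr22:41381692-41381928, plus strand: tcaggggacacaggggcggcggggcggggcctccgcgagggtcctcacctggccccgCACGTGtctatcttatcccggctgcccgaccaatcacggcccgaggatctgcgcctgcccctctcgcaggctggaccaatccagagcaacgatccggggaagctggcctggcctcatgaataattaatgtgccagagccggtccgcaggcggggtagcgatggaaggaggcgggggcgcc
CIART, chr1:150282304-150282542, plus strand: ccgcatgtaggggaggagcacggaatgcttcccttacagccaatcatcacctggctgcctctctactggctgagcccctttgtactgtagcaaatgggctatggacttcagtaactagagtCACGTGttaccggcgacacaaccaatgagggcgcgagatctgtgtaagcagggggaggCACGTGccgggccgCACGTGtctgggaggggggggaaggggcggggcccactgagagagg
In the 250 bases before an annotated start, TGATGNAA was found in 5 of the 16 ATF4 stress regulators with a sequence in the table (31.2%) and in 3.89% of all 27305 genes there. The share was lower in the other lists of the ATF4 programme. It was found in 3 of 12 amino acid and one-carbon enzymes (25%), 1 of 10 amino acid transporters (10%) and 3 of 15 aminoacyl-tRNA synthetases (20%). The heat shock element was found in 6 of 15 heat shock genes (40%), against 0.557% of all genes. The E-box was found in 6 of 18 clock genes (33.3%), against 7.73% of all genes. These are matches of letters and not measured binding.

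Library totals ran from 41.0 to 58.1 M counts (M, 1000000) at 16 h and from 40.2 to 78.7 M counts at 6 h. All 12 markers of the A549 line were detected. Of 14 alveolar type II and airway markers 8 stayed under 1 CPM (counts per 1000000 counts of the library) in all 18 libraries. These include the surfactant genes SFTPA1, SFTPB, SFTPC and SFTPD and the lung factor NKX2-1. Of 15 markers of blood, endothelial, stromal, liver and glial cells, 8 stayed under 1 CPM in all 18. The others did not, and the list summed to 50.3 to 81.1 CPM at 16 h and 38.5 to 95.4 CPM at 6 h. ATF6 mRNA stood at 9.07 ± 1.34 CPM in siATF6 and 48.0 ± 0.736 CPM in siControl at 16 h (mean ± SD, n = 3 each), and at 11.5 ± 2.90 and 57.9 ± 1.09 CPM at 6 h. ATF4 mRNA stood at 132 ± 8.35 CPM in siATF4 and 166 ± 21.1 CPM in siControl at 16 h, and at 161 ± 46.6 and 355 ± 31.9 CPM at 6 h. Every library thus holds mRNA of both targets. In bulk RNA, fewer cells in a state and less RNA per cell cannot be told apart.

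The 6 h libraries of replicate 2 went against their glucose labels in siATF6 and siControl. HSPA5, the ER chaperone that glucose deprivation is known to raise, stood at 731 CPM in the library labelled 0 mM and 2028 CPM in the library labelled 25 mM in siATF6 replicate 2. In siControl replicate 2 it stood at 720 CPM in the library labelled 0 mM and 3434 CPM in the library labelled 25 mM. By contrast siControl replicate 1 had 5299 CPM in 0 mM and 1021 CPM in 25 mM, and replicate 3 had 4334 CPM in 0 mM and 795 CPM in 25 mM. The siATF4 replicate 2 pair ran with its labels, at 1792 CPM in 0 mM and 560 CPM in 25 mM, but that 25 mM library held ATF4 targets at the level of the 16 h libraries. Results are therefore given with all 18 libraries, and leading values also without the 3 libraries of 6 h replicate 2. Where a gene given by name loses its call without these 3, this is stated. Counts of lists use all 18 libraries unless the other count is given.

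After 16 h, many mRNAs of the ATF4 programme were lower than after 6 h, as were many growth factor feedback genes and YAP targets, and most heat shock genes were higher. Of 17978 gene IDs tested with edgeR's quasi-likelihood test and siRNA as a block, 3628 passed an adjusted p of 0.05 (20.2%). Of these 1628 rose (9.06% of those tested) and 2000 fell (11.1%). The test took the 9 libraries of each time as independent, which the labels do not settle. Most changes were small. The median size among called genes was 0.364 on the log2 scale, and only 67 rose and 198 fell by 1 or more. Without the 6 h replicate 2 libraries 3761 of 18189 IDs were called (20.7%), 1639 higher (9.01%) and 2122 lower (11.7%), and 2828 IDs were called in both fits, all in the same direction. The libraries of the 2 times did not overlap at all in 259 IDs (1.44%), 135 of them higher (0.751%) and 124 lower (0.69%) at 16 h. Without those of 6 h replicate 2 that number was 794 (4.42%), with 279 higher (1.55%) and 515 lower (2.86%). With the 0 mM libraries in the fit as well, and without the single failed one, 2103 IDs passed.

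**Figure D1:**
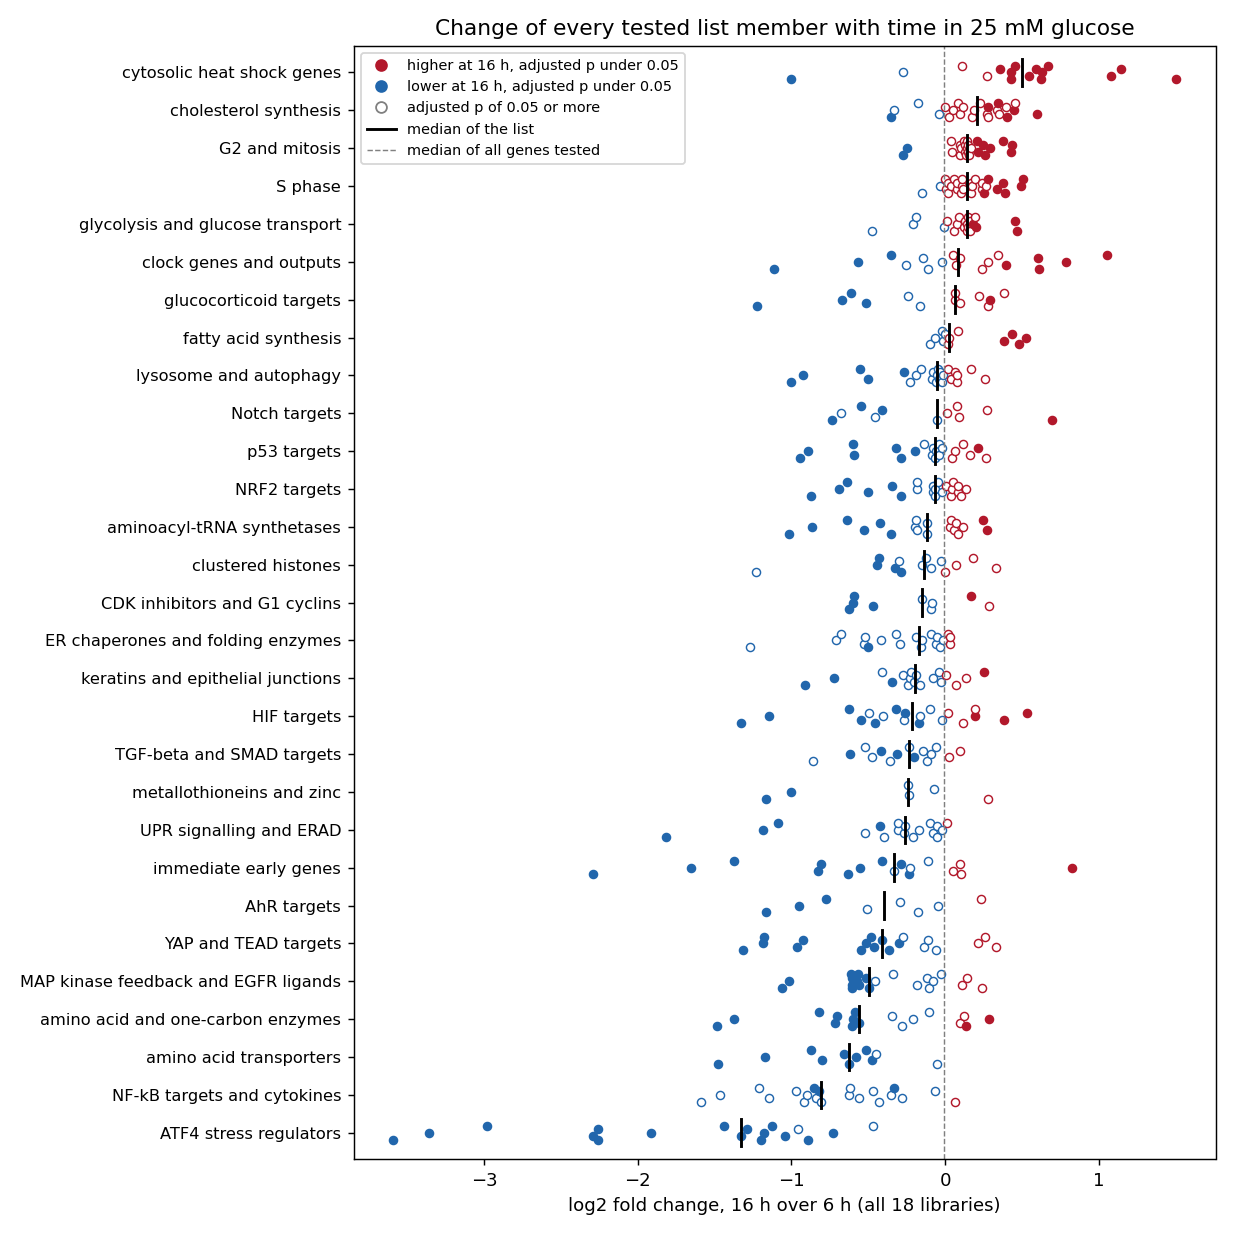
Log2 fold change (16 h over 6 h, all 18 libraries) of every tested member of 29 gene lists, 1 point per gene, filled where the adjusted p was under 0.05, with a bar at each list's median and a dashed line at the median of all genes tested (-0.01). FGF21 is not drawn, since it had 0 counts at 16 h. ATF4 stress regulators have the lowest median (-1.33) and heat shock genes the highest (0.50). The list named cytosolic also holds the mitochondrial chaperonin genes HSPD1 and HSPE1.

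The ATF4 stress regulators, the transcription factors, kinase inhibitors and secreted proteins that the integrated stress response is known to induce, fell as a list. Of 19 tested, 17 fell and none rose, with a median log2 change of -1.33 against -0.01 over all genes. When 6 h replicate 2 was left out all 19 fell, at a median of -1.23. In 17 of the 19 every 16 h library then lay under every 6 h library, where 2.86% of all IDs did. With all 18 libraries this held for 8 of the 19, and for 0.69% of all IDs. CHAC1, an enzyme that degrades glutathione, had 1.79, 2.27 and 3.61 CPM at 16 h and 3.65, 32.5 and 59.2 CPM at 6 h (lowest, median and highest of 9 libraries). Its 16 h libraries all lay under its 6 h libraries, though the highest of 16 h and the lowest of 6 h, both siATF4 replicate 2, nearly touched. The log2 change was -3.59 ± 0.38 (SE, adjusted p = 2.81e-05), and -3.66 (adjusted p = 3.46e-07) without the 6 h replicate 2 libraries.

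ATF3, a stress-induced transcription factor, had 2.61, 4.82 and 7.43 CPM at 16 h and 7.68, 22.4 and 38.5 CPM at 6 h. No library overlapped, and the log2 change was -2.29 ± 0.30 (SE, adjusted p = 9.7e-05). SESN2, which encodes the leucine sensor Sestrin 2, an inhibitor of mTORC1, had 9.17, 11.1 and 16.0 CPM at 16 h and 18.3, 65.8 and 112 CPM at 6 h, again with no overlap, and fell by 2.26 on the log2 scale. DDIT3, the gene of the pro-apoptotic factor CHOP, had 4.38, 5.46 and 15.1 CPM at 16 h and 10.1, 32.7 and 237 CPM at 6 h. Its times overlapped only through the siATF4 6 h replicate 2 library (10.1 CPM), and its highest 6 h values, 111 CPM in siATF6 and 237 CPM in siControl, came from the doubtful replicate 2 libraries. Without these the 6 h libraries held 25.5 to 36.4 CPM and the log2 change was -2.19 (adjusted p = 1.1e-05) instead of -2.98 ± 0.65 (SE, adjusted p = 0.00529). A reading limit applies to DDIT3, as 27.2% of its exon length overlaps MARS, a methionyl-tRNA synthetase gene with a mean of 287 CPM, on the opposite strand and the reads carry no strand.

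TRIB3, a pseudokinase that restrains AKT, had 72.0, 79.0 and 176 CPM at 16 h and 97.0, 400.0 and 519 CPM at 6 h. The times overlapped only through the siATF4 6 h replicate 2 library (97.0 CPM), and its log2 change was -1.91 ± 0.31 (SE, adjusted p = 0.000595). ADM2, a peptide hormone of the calcitonin family, changed by -3.36, STC2, the secreted glycoprotein stanniocalcin 2, by -2.26, and DDIT4, the mTORC1 inhibitor REDD1, by -1.44. VEGFA, the angiogenic growth factor, changed by -1.33 and VLDLR, a lipoprotein receptor, by -1.18, both without overlap. The bZIP factors JDP2 (-1.20, adjusted p = 2.81e-05) and CEBPG (-1.04, adjusted p = 3.24e-05), the second a partner of ATF4, fell as well. FGF21, a secreted metabolic hormone, was counted 0 times in the 9 libraries of 16 h and 78 times in the 9 of 6 h (2 to 21 counts each). Set against a floor of 3 counts over the whole 16 h group it was at least 22.5-fold lower, which leaves the list's median at -1.33. ATF5 (-0.47, adjusted p = 0.0729) and NUPR1 (-0.96, adjusted p = 0.0625) did not pass with all 18 libraries.

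ATF4 mRNA itself fell by 0.81 on the log2 scale (SE 0.14, adjusted p = 0.000589). Its libraries ran 123 to 248 CPM at 16 h (median 155) and 109.7 to 442 CPM at 6 h (median 362) and overlapped. In siATF4 they held 123 to 139 CPM at 16 h and 109.7 to 201 CPM at 6 h. Within each replicate number, the mean log2 difference of CHAC1 (log2 of CPM plus 0.5) was -3.66, -2.83 and -3.20 in numbers 1, 2 and 3, and that of ATF4 was -0.79, -0.71 and -0.85.

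**Figure D2:**
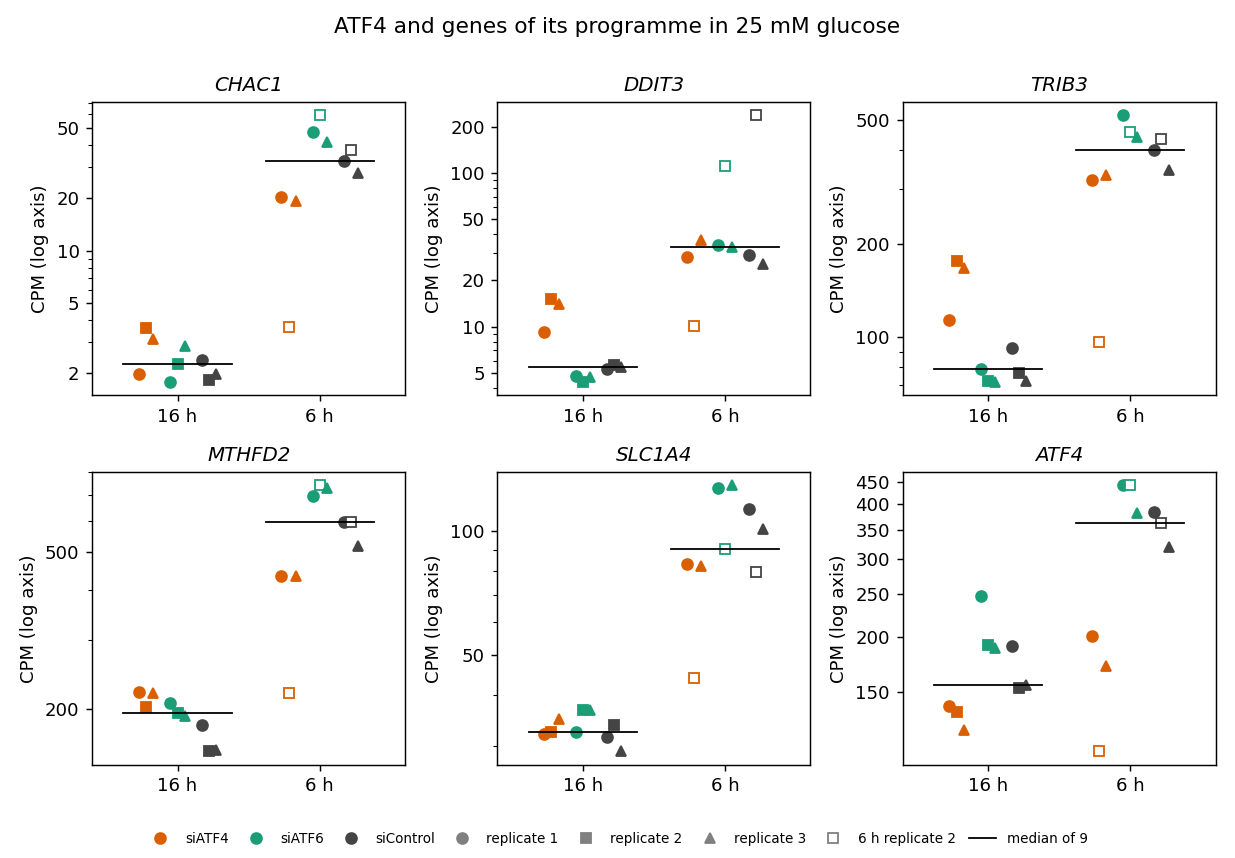
CPM on a log axis of CHAC1, DDIT3, TRIB3, MTHFD2, SLC1A4 and ATF4 in each of the 18 libraries, with 16 h left of 6 h, colour for siRNA, shape for replicate number, open squares for 6 h replicate 2 and a line at the median of 9. Outside siATF4 all libraries of 16 h lie under all libraries of 6 h in the 6 panels, and the open siATF4 square lies at or near the 16 h level.

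Many genes in the metabolic arms of the same programme fell too, where 11.1% of all gene IDs fell and 9.06% rose. Among 17 enzymes that make amino acids or carry one-carbon units 9 fell and 2 rose, with a median of -0.56. MTHFD2, the mitochondrial folate enzyme, had 156, 195 and 220.1 CPM at 16 h and 219, 596 and 740.1 CPM at 6 h. The times overlapped only through siATF4 replicate 2 at 6 h (219 CPM), and the log2 change was -1.49 ± 0.17 (SE, adjusted p = 3.08e-05). GPT2, the mitochondrial alanine aminotransferase, had 26.3, 27.6 and 29.99 CPM at 16 h and 32.0, 79.4 and 103 CPM at 6 h with no overlap, and changed by -1.38 ± 0.14 (SE, adjusted p = 7.78e-06). MTHFD1L, another mitochondrial folate enzyme, changed by -0.59 and PSPH, the last step of serine synthesis, by -0.71. The cytosolic folate enzymes SHMT1 (0.29, adjusted p = 0.00674) and MTHFD1 (0.14, adjusted p = 0.0196) rose slightly.

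Of 11 amino acid transporters 9 fell and none rose, with a median of -0.62. SLC1A4, a carrier of alanine, serine and cysteine, had 29.1, 32.5 and 36.8 CPM at 16 h and 44.0, 90.1 and 129 CPM at 6 h. No library overlapped, and the log2 change was -1.48 ± 0.13 (SE, adjusted p = 3.01e-06), or -1.66 (adjusted p = 1.86e-08) without the 6 h replicate 2 libraries. SLC7A1, a carrier of arginine and lysine, also showed no overlap and changed by -1.17 ± 0.12 (SE, adjusted p = 7.78e-06). The cystine carrier SLC7A11 changed by -0.88 and the glutamine carrier SLC1A5 by -0.80. Of 19 cytosolic aminoacyl-tRNA synthetases 6 fell and 2 rose, with a median of -0.12. CARS1, which charges cysteine tRNA, changed by -1.02 ± 0.12 (SE, adjusted p = 3.17e-05), GARS1, which charges glycine tRNA, by -0.87 and TARS1, which charges threonine tRNA, by -0.42. RARS1 (0.27, adjusted p = 0.000224) and KARS1 (0.25, adjusted p = 0.00192), which charge arginine and lysine tRNA, rose.

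Further genes among the 14 with the largest falls were ULBP1, a ligand of the natural killer receptor NKG2D (-2.29), the small GTPase RAB39B (-2.02) and the kinesin KIF21B (-1.48). KIF21B had 6.74, 9.22 and 12.8 CPM at 16 h and 13.3, 25.5 and 39.6 CPM at 6 h, without overlap.

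Genes of the ER stress response split, where 11.1% of all gene IDs fell and 9.06% rose. Of 20 ER chaperones and folding enzymes, 1 fell and none rose, at a median of -0.17, and without the 6 h replicate 2 libraries 2 fell and 1 rose, at a median of 0.03. HSPA5 had 699.9, 729.9 and 765 CPM at 16 h and 559.8, 960.5 and 3434 CPM at 6 h with a log2 change of -0.71 ± 0.28 (SE, adjusted p = 0.0866). It passed only without the 6 h replicate 2 libraries, at -0.30 (adjusted p = 0.0264). ERO1B, an ER oxidase, was the chaperone list's single fall (-0.50, adjusted p = 0.00542). CRELD2, a secreted ER stress factor, had a log2 change of -0.68 ± 0.35 (SE, adjusted p = 0.195), and of 0.01 (adjusted p = 0.958) without the 6 h replicate 2 libraries. Of 18 genes of signalling and ER-associated degradation 4 fell. XBP1, the transcription factor activated by IRE1, had 39.7, 46.3 and 53.02 CPM at 16 h and 41.8, 117 and 167 CPM at 6 h and changed by -1.19 ± 0.18 (SE, adjusted p = 0.000367). ERN1, the gene of IRE1 itself, changed by -1.09. HERPUD1, which helps assemble the degradation complex, changed by -1.81 ± 0.51 (SE, adjusted p = 0.0223), but 308 and 580 CPM at 6 h came from replicate 2 of siATF6 and siControl, and without the 6 h replicate 2 libraries its change was -0.95 (adjusted p = 7.56e-05). SELENOS, a selenoprotein of the same complex, changed by -0.43, and DNAJB9, a co-chaperone of HSPA5, did not pass (-1.27, adjusted p = 0.0933).

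Fewer genes passed within single siRNAs, where 3 libraries stood against 3. In siATF4 22 IDs were called (0.122%), 7 higher (0.0389%) and 15 lower (0.0834%). In siATF6 1265 were called (7.04%), 584 higher (3.25%) and 681 lower (3.79%). In siControl 274 were called (1.52%), 101 higher (0.562%) and 173 lower (0.962%). With the 6 h replicate 2 libraries left out, siATF4 had 218 calls (1.2%), 66 higher (0.363%) and 152 lower (0.836%). By the same fit siATF6 had 1254 (6.89%), 492 higher (2.7%) and 762 lower (4.19%), and siControl had 368 (2.02%), 110 higher (0.605%) and 258 lower (1.42%). Other alternatives moved these counts as well. DESeq2 called 307 in siATF4, 156 higher and 151 lower, and 752 in siControl, 309 higher and 443 lower. Single libraries mattered too, with 456 calls in siATF6 without its 16 h replicate 2 and 61 in siControl without its 16 h replicate 2. Of the 19 ATF4 stress regulators 0 were called lower in siATF4, 17 in siATF6 and 14 in siControl, and the list's medians were -0.80, -1.77 and -1.45. When 6 h replicate 2 was left out 11, 18 and 14 were called lower, at medians of -0.97, -1.54 and -1.29.

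The difference between siRNAs was tested itself. No gene passed for siATF4 minus siControl, with 622 of 17978 IDs at an unadjusted p under 0.05 and 3 calls by DESeq2, and none passed for siATF6 minus siControl, with 188 IDs at an unadjusted p under 0.05 and 0 calls by DESeq2. The median difference over the 19 ATF4 stress regulators was 0.91 for siATF4 minus siControl, a smaller fall in siATF4, against 0.01 over all genes, and 0.54 without the 6 h replicate 2 libraries. For siATF6 minus siControl it was -0.35. MTHFD2 averaged 214 ± 10.3 CPM at 16 h and 363 ± 125 CPM at 6 h in siATF4, against 165 ± 14.5 and 571 ± 45.2 CPM in siControl (SD, n = 3 each). Its difference of 1.08 had an adjusted p of 0.94, and 0.80 with an adjusted p of 0.445 without the 6 h replicate 2 libraries (edgeR). CHAC1 averaged 2.90 ± 0.837 CPM at 16 h and 14.4 ± 9.29 CPM at 6 h in siATF4, against 2.06 ± 0.278 and 32.7 ± 5.05 CPM in siControl, a difference of 1.74 on the log2 scale that did not pass (adjusted p = 1). ATF4 mRNA was still present in the siATF4 cells at both times.

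**Figure D3:**
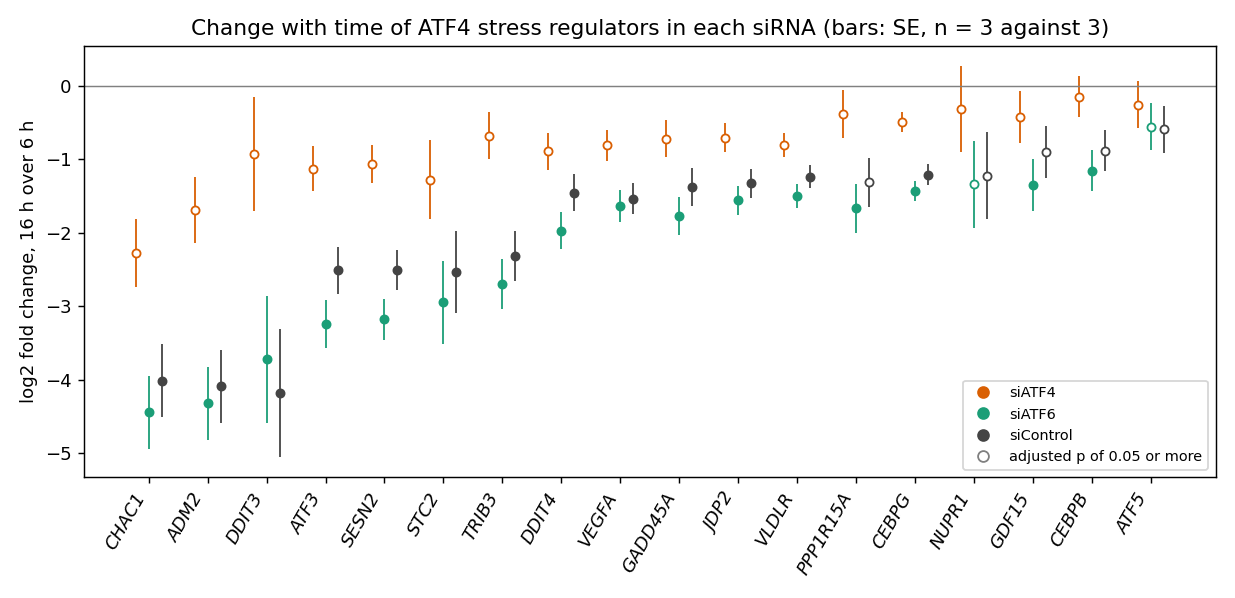
Log2 fold change with time (16 h over 6 h) of 18 ATF4 stress regulators in siATF4, siATF6 and siControl, with SE bars (n = 3 against 3) and open points at an adjusted p of 0.05 or more; FGF21 is not drawn. All siATF4 points are open and lie closer to 0 than the siControl points, and no single difference between siRNAs passed the adjustment.

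Most heat shock genes rose, where 9.06% of all gene IDs did. Of 16, which include the mitochondrial chaperonin genes HSPD1 and HSPE1 beside cytosolic chaperones, 12 rose and 1 fell, with a median log2 change of 0.50, and 10 of the 12 had every 16 h library above every 6 h library, where 0.751% of all IDs did. Without the 6 h replicate 2 libraries 13 rose and none fell, at the same median. HSPA8, the constitutive HSP70 of the cytosol at chr11:123057489-123063230 (GRCh38), had 2280, 2478 and 2926 CPM at 16 h and 592, 1266 and 1791 CPM at 6 h, with no overlap. The lowest 6 h values, 617 and 592 CPM, were those of the doubtful siATF6 and siControl libraries. Its change was 1.08 ± 0.17 (SE, adjusted p = 0.000463), and 0.95 (adjusted p = 1.8e-06) without the 6 h replicate 2 libraries.

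HSPA1A and HSPA1B, near-identical inducible HSP70 genes between which reads are divided by estimate, had 332, 512 and 689 CPM at 16 h and 42.6, 215 and 304 CPM at 6 h for HSPA1A and 216, 289 and 424 CPM at 16 h and 38.2, 162 and 208 CPM at 6 h for HSPA1B. Neither overlapped, and both had their lowest 6 h values in the doubtful libraries. HSPA1A changed by 1.504 ± 0.33 (SE, adjusted p = 0.00485) and by 1.29 (adjusted p = 5.69e-06) without the 6 h replicate 2 libraries, and HSPA1B by 1.14 ± 0.28 (SE, adjusted p = 0.0107) and 0.92 (adjusted p = 3.58e-05). With the 0 mM libraries in the fit, without the failed one, HSPA1B no longer passed (adjusted p = 0.0929).

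CHORDC1, a co-chaperone of HSP90, gave the smallest adjusted p of the list. It had 75.3, 91.5 and 101 CPM at 16 h and 55.9, 61.0 and 70.2 CPM at 6 h, without overlap, and changed by 0.55 ± 0.05 (SE, adjusted p = 3.01e-06). Its mean log2 differences within replicate numbers 1, 2 and 3 were 0.61, 0.49 and 0.55. HSPH1, the HSP110 exchange factor, had 202, 244 and 265 CPM at 16 h and 104, 157 and 184 CPM at 6 h and changed by 0.63 ± 0.08 (SE, adjusted p = 3.73e-05), and HSP90AA1, the inducible HSP90, changed by 0.62 ± 0.07 (SE, adjusted p = 3.43e-05). HSPE1, the mitochondrial HSP10, changed by 0.43, but 14.2% of its exon length overlaps HSPD1 on the opposite strand. HSPD1 averaged 851 CPM and HSPE1 149 CPM. CRYAB, a small heat shock protein, was the single member to fall (-1.01, adjusted p = 0.0202), at no more than 1.25 CPM in any library, and it did not pass without the 6 h replicate 2 libraries (adjusted p = 0.0904). Within siRNAs, 1 member was called higher in siATF4, 12 in siATF6 and 3 in siControl, and without the 6 h replicate 2 libraries 9, 13 and 8 were.

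**Figure D4:**
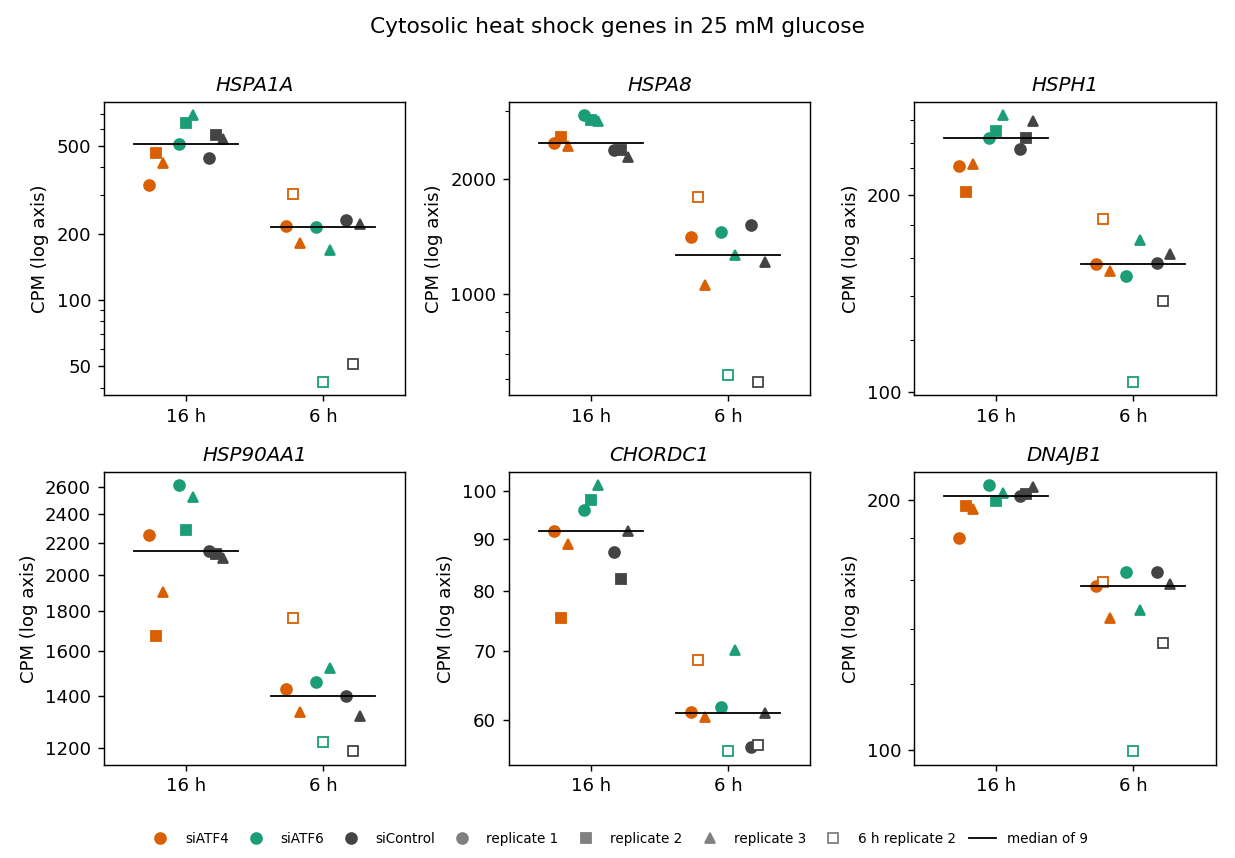
CPM on a log axis of HSPA1A, HSPA8, HSPH1, HSP90AA1, CHORDC1 and DNAJB1 in each of the 18 libraries, with 16 h left of 6 h, colour for siRNA, shape for replicate number, open squares for 6 h replicate 2 and a line at the median of 9. The 16 h libraries lie above the 6 h libraries in every panel except HSP90AA1, where the highest 6 h library reaches 1764 CPM and the lowest 16 h library stands at 1670 CPM.

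Clock genes moved in both directions, beside 9.06% of all gene IDs that rose and 11.1% that fell. Of 18 tested 5 rose and 3 fell, with a median of 0.09. CRY1, a repressor of CLOCK and BMAL1 at chr12:106991364-107093549 (GRCh38), had 23.6, 28.6 and 36.5 CPM at 16 h and 47.7, 61.0 and 77.5 CPM at 6 h, with no overlap. Its change was -1.12 ± 0.09 (SE, adjusted p = 1.43e-06), and it was similar in siATF4 (-1.02), siATF6 (-1.35) and siControl (-0.97), each past the threshold. The mean log2 differences within replicate numbers 1, 2 and 3 were -0.87, -1.02 and -1.38. Without the 6 h replicate 2 libraries the change was -1.21 (adjusted p = 2.91e-07). ARNTL, the gene of BMAL1, changed by -0.35 ± 0.09 (SE, adjusted p = 0.00687) and NFIL3, a repressor of D-box genes, by -0.57 ± 0.14 (SE, adjusted p = 0.00805).

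The PAR bZIP factors TEF and DBP, outputs that are known to be driven by CLOCK and BMAL1, rose. TEF had 8.03, 9.15 and 12.4 CPM at 16 h and 5.63, 6.04 and 7.56 CPM at 6 h, without overlap, and changed by 0.61 ± 0.08 (SE, adjusted p = 4.62e-05). DBP had 5.06, 8.76 and 10.1 CPM at 16 h and 2.72, 4.39 and 5.71 CPM at 6 h, with overlap, and changed by 0.78 ± 0.14 (SE, adjusted p = 0.00102). A limit applies to DBP, as 10.1% of its exon length overlaps SPHK2 on the opposite strand. SPHK2 averaged 27.1 CPM and DBP 6.24 CPM. CIART, a repressor of the clock, changed by 1.05 ± 0.24 (SE, adjusted p = 0.00486) but never exceeded 1.33 CPM. The repressor gene NR1D1 changed by 0.39 and PER3 by 0.61, the second not past the threshold without the 6 h replicate 2 libraries (adjusted p = 0.0572). PER2 (0.24, adjusted p = 0.152) and NR1D2 (0.10, adjusted p = 0.504) did not pass.

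**Figure D5:**
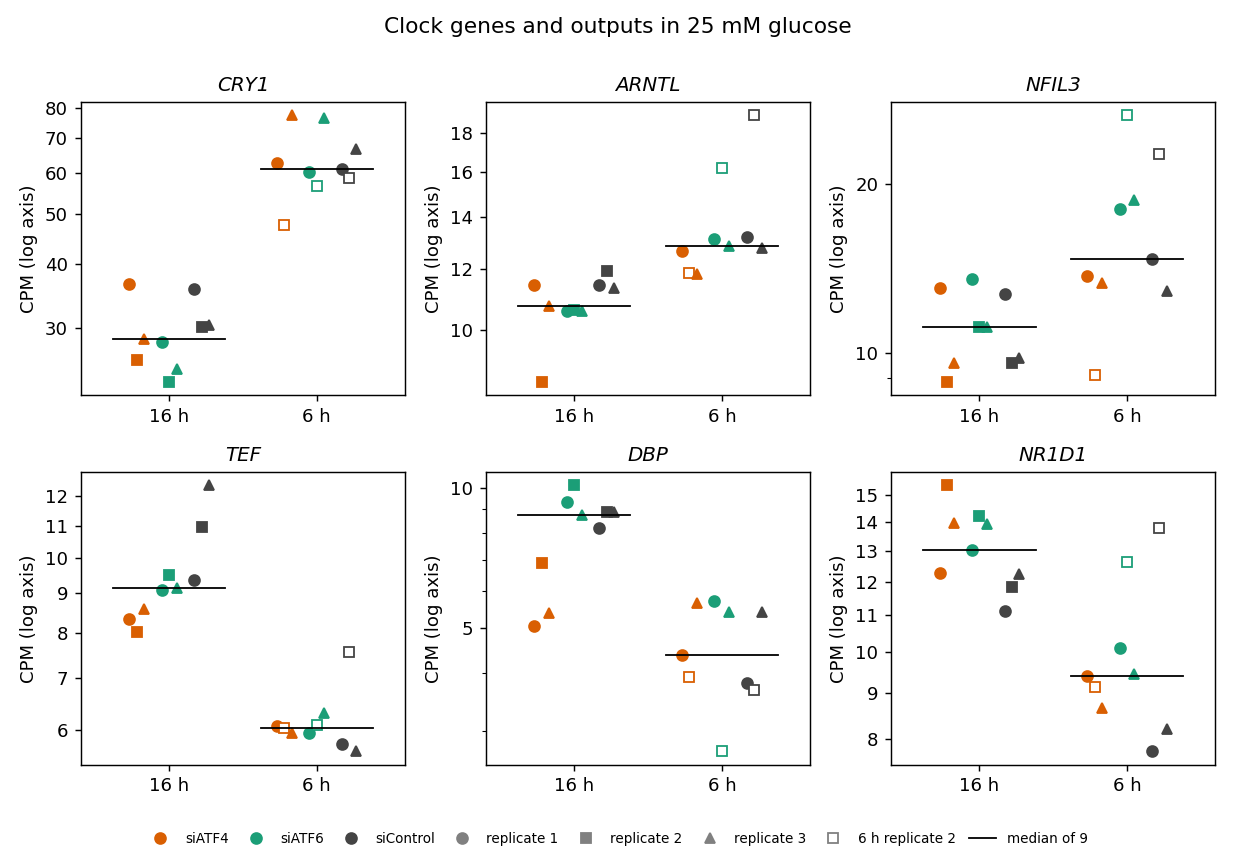
CPM on a log axis of CRY1, ARNTL, NFIL3, TEF, DBP and NR1D1 in each of the 18 libraries, with 16 h left of 6 h, colour for siRNA, shape for replicate number, open squares for 6 h replicate 2 and a line at the median of 9. CRY1 and TEF separate the 2 times completely, while the other 4 genes overlap.

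Genes that respond to growth factors and to cell shape were mostly lower at 16 h, where 11.1% of all gene IDs were. Of 17 immediate early genes 10 fell and 1, the nuclear receptor NR4A1 (0.82, adjusted p = 0.00213), rose. ATF3, counted above among the ATF4 stress regulators, is 1 of the 10. Without the 6 h replicate 2 libraries 9 fell and 1 rose. IER2 changed by -0.41 and IER3 by -0.81. Of 21 genes of MAP kinase feedback and EGFR ligands 11 fell and none rose, with a median of -0.49. DUSP6, the phosphatase of ERK, had 10.1, 11.1 and 14.9 CPM at 16 h and 11.0, 22.8 and 35.7 CPM at 6 h and changed by -1.01 ± 0.16 (SE, adjusted p = 0.000276). LRIG1, which limits EGFR, did not overlap and changed by -0.60 ± 0.07 (SE, adjusted p = 3.55e-05). Of its exon length 12.9% overlaps SLC25A26 on the opposite strand (means of 16.2 CPM for SLC25A26 and 17.6 CPM for LRIG1). The feedback inhibitors ERRFI1 (-0.61) and SPRY4 (-0.56) fell as well. Of 19 targets of YAP and TEAD, the growth regulators of the Hippo pathway, 12 fell and none rose, with a median of -0.41. CCN2, a matricellular protein, had 18.4, 38.8 and 50.2 CPM at 16 h and 54.3, 85.2 and 97.1 CPM at 6 h, without overlap, and changed by -1.19 ± 0.12 (SE, adjusted p = 8.2e-06). AJUBA, a LIM protein that binds LATS kinases, also separated completely and changed by -0.96 ± 0.10 (SE, adjusted p = 1.02e-05). ANKRD1 changed by -1.18 and GADD45B by -1.32. When 6 h replicate 2 was left out, 1 member of the MAP kinase list and 1 YAP target rose. In siATF4, siATF6 and siControl 0, 7 and 1 immediate early genes were called lower, and 0, 8 and 1 of the MAP kinase list. For YAP targets these were 0, 7 and 4, where 0.0834%, 3.79% and 0.962% of all gene IDs were called lower. The medians of the MAP kinase list were -0.111, -0.747 and -0.495, and those of YAP targets -0.299, -0.471 and -0.375. No gene passed in the differences between siRNAs by edgeR.

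Smaller lists of receptor targets are given beside the 9.06% of all gene IDs that rose and the 11.1% that fell. They were not tested against these shares. Of 15 TGF-beta and SMAD targets 4 fell (3 without the 6 h replicate 2 libraries), among them SMAD7, an inhibitor of the pathway (-0.42). Of 13 glucocorticoid targets 4 fell and 1 rose. TSC22D3, a classic glucocorticoid-induced gene, had 11.6, 12.9 and 14.04 CPM at 16 h and 16.6, 26.6 and 58.4 CPM at 6 h, without overlap, and changed by -1.23 ± 0.18 (SE, adjusted p = 0.000182), while FKBP5 rose (0.29, adjusted p = 0.0217) and did not pass without the 6 h replicate 2 libraries (adjusted p = 0.0565). Of 8 IDs of aryl hydrocarbon receptor targets 3 fell. These were TIPARP (-0.77) and the cytochromes CYP1A1 (-1.17) and CYP1B1 (-0.95), and in each the lowest 6 h library was one of replicate 2 and lay inside the 16 h range. When 6 h replicate 2 was left out 4 fell and 1 rose. Of 11 Notch genes 3 fell, led by HES1 (-0.74), and the ligand JAG2 rose (0.69). Without the 6 h replicate 2 libraries 2 Notch genes fell and 1 rose. Of 18 keratin and junction genes 3 fell, with the tight junction gene CLDN1 at -0.92, and 1 rose, against 5 and 0 without the 6 h replicate 2 libraries.

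Some cell cycle genes rose by small amounts, beside 9.06% of all gene IDs that rose and 11.1% that fell. The lists were not tested against these shares. The median was 0.140 for S phase genes and 0.145 for G2 and mitosis genes, and 0.064 and 0.074 without the 6 h replicate 2 libraries. The mean log2 CPM of the S phase list was lowest in the doubtful 6 h libraries, at 5.777 in siATF6 and 5.553 in siControl. Of 28 S phase genes 7 rose and none fell (6 and 1 without the 6 h replicate 2 libraries), with FEN1, the flap endonuclease, at 0.49 and MCM10, a replication initiation factor, at 0.51. Of 25 G2 and mitosis genes 8 rose and 2 fell, with the kinesin KIF20A at 0.44, the checkpoint kinase BUB1 at 0.43, the cyclin CCNB1 at 0.37 and the fallen KIF23 at -0.25. Without the 6 h replicate 2 libraries 6 of the 25 rose and 2 fell. The cyclin-dependent kinase inhibitors CDKN1A (-0.60, adjusted p = 0.0013) and CDKN1B (-0.47, adjusted p = 0.000129) fell together with CCND3 (-0.63), while CCND1 rose (0.17). Of 14 histone genes 4 fell and none rose (3 and none without the 6 h replicate 2 libraries).

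Some genes of lipid synthesis rose, as did 9.06% of all gene IDs, while 11.1% of all fell. Lipid and glycolysis lists were not tested against these shares. Of 12 fatty acid synthesis genes 4 rose and none fell, at a median of 0.02. FASN, the fatty acid synthase, had 599, 766 and 896 CPM at 16 h and 446, 513 and 612 CPM at 6 h, with overlap, and changed by 0.53 ± 0.08 (SE, adjusted p = 0.000147). ACACA, the acetyl-CoA carboxylase, changed by 0.43, ELOVL6, an elongase, by 0.48 and ACLY, the ATP citrate lyase, by 0.38. Of 24 cholesterol genes 5 rose and 1, SREBF2, the factor that controls the pathway, fell (-0.35, adjusted p = 0.00052). NSDHL, an enzyme of the later steps of the pathway, changed by 0.34 ± 0.09 (SE, adjusted p = 0.0103). Of 21 genes of glycolysis and glucose transport 4 rose, with PFKM, a phosphofructokinase, at 0.45, ENO2, an enolase, at 0.47, GPI, the glucose phosphate isomerase, at 0.20 and LDHA, the lactate dehydrogenase, at 0.18. When 6 h replicate 2 was left out LDHA did not pass (adjusted p = 0.0702).

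Other stress lists were mixed. Their counts stand beside 9.06% of all gene IDs that rose and 11.1% that fell, and were not tested against these shares. Of 20 hypoxia-inducible factor (HIF) targets 8 fell and 3 rose, with NDRG1 at -0.62 and the carbonic anhydrase CA12, which rose without overlap, at 0.54 ± 0.08 (SE, adjusted p = 0.000114). Of 22 NRF2 targets 6 fell and none rose. TXNRD1, the thioredoxin reductase, had 1920, 2115 and 2782 CPM at 16 h and 2811, 3480 and 4185 CPM at 6 h, without overlap, and changed by -0.64 ± 0.09 (SE, adjusted p = 7.14e-05). Of 21 p53 targets 7 fell, led by the pro-apoptotic gene BBC3 (-0.94, adjusted p = 0.000458), and CCNG1 rose (0.21). Of 24 lysosome and autophagy genes 5 fell and none rose. ULK1, the kinase that starts autophagy, had 95.5, 136 and 193 CPM at 16 h and 210.4, 289 and 349.5 CPM at 6 h, without overlap, and changed by -1.003 ± 0.12 (SE, adjusted p = 3.84e-05), and GABARAPL1, an ATG8 protein, by -0.92 ± 0.11 (SE, adjusted p = 3.73e-05). Of 6 metallothionein and zinc genes MT1X (-1.17, adjusted p = 0.000698) and the zinc exporter SLC30A1 (-1.01, adjusted p = 0.000218) fell. Of 21 NF-kB targets and cytokines 3 fell, namely NFKB2 (-0.82), RELB (-0.85) and LIF (-0.34), none rose, and the median was -0.81 with wide spread between replicate numbers. IL11 did not pass (-0.97, adjusted p = 0.056). Of 20 ribosomal protein genes and of 13 mitochondrial mRNAs none passed. Of 20 nuclear genes of the respiratory chain 3 rose, and 2 without the 6 h replicate 2 libraries.

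Among the 14 genes with the largest rises, 3 were the heat shock genes HSPA1A, HSPA1B and HSPA8. SOX9, a transcription factor of lung epithelial progenitors, had 18.8, 30.2 and 35.4 CPM at 16 h and 8.31, 11.8 and 21.1 CPM at 6 h, and only 6 h replicate 2 libraries reached into the 16 h range. Its change was 1.14 ± 0.18 (SE, adjusted p = 0.000456), and 1.54 (adjusted p = 2.91e-07) without them. The ligand gene WNT10B had 4.78, 5.74 and 6.52 CPM at 16 h and 1.54, 2.46 and 4.18 CPM at 6 h and the open reading frame C11orf86 5.90, 7.17 and 9.92 CPM at 16 h and 1.94, 2.86 and 4.85 CPM at 6 h, both without overlap, and they changed by 1.18 and 1.23. LINGO1, a leucine-rich repeat membrane protein (1.02), LRFN1 (0.92) and ELFN2 (0.92) also separated completely, and LRFN1 did not pass once the 0 mM libraries, without the failed one, joined the fit (adjusted p = 0.062). The ceramide synthase CERS1 (1.01), HPDL (0.97), the kinase LMTK3 (0.95), the exchange factor VAV3 (0.95) and LY6K (0.93) rose with overlap. In siATF4, siATF6 and siControl CERS1 changed by 1.70, 1.10 and 0.20 and HPDL by 0.37, 1.30 and 1.23, none past the threshold. Exons of CERS1 share 67.1% of their length with GDF1 on the same strand, and those of LY6K share 71% with the antisense gene LNCOC1, so their reads may include these neighbours.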

How the data were processed

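RNA was enriched for poly(A), made into non-stranded libraries and sequenced as paired 150-base reads, per the labels' protocols. The values are expected counts per gene, which the authors deposited as 1 table of 60662 gene IDs, and fastp, STAR, RSEM and the build GRCh38 are named in the submitters' processing notes. The annotation release and tool versions are not given in the sources used here. Expected counts share reads of similar genes by estimate, so near-identical copies are uncertain, and without strand the reads of overlapping genes on opposite strands cannot be told apart.

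Expected counts were rounded to whole numbers. CPM are counts per 1000000 counts of a library. Genes were kept by filterByExpr of edgeR 4.0.16 (minimum count 10, minimum total 15) in R 4.3.3, scaled by TMM and tested with edgeR's robust quasi-likelihood test, two-sided, with siRNA and time as terms over 18 libraries. Effects within siRNAs and their differences came from a fit of 1 mean per group. P-values were adjusted by Benjamini-Hochberg over all genes tested, with a threshold of 0.05. Standard errors are the log2 change divided by the root of F. Differences within a replicate number use log2 of CPM plus 0.5. No library was imputed. The script was tested on simulated data. Depth was 40.2 to 78.7 M counts per library, and the labels call the replicates biological without saying whether they were separate cultures, so p-values measure the spread between these samples. The main fit takes the 9 libraries of each time as independent. Libraries of 1 replicate number in different siRNAs may share deviations. The mean log2 CPM of the NF-kB list, for example, was highest in replicate 1 in every group. The number of independent units per time may therefore be less than 9. Replicates were not copies of each other, with a mean chi-square per gene of 9.09 or more where counting error alone gives about 1.

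The comparison, its members and the 45 gene lists were chosen with earlier results of these data known. Named were the 14 strongest rises and 14 strongest falls past 0.05 both with all libraries and without the 6 h replicate 2 libraries, with a mean of at least 5 CPM at 1 of the times and the same direction in the 3 siRNAs; up to 4 members per list with the smallest p and members past 0.05 in the opposite direction; and both siRNA targets. ATF5, NUPR1, CEBPG, FGF21, DNAJB1, HSP90AB1, NR1D1, NR1D2, PER2 and PER3 were added after their values were seen. Alternatives were DESeq2 1.42.0, other scalings, no filter, other sets of libraries, the replicate number as a block and leaving out each library. Exon overlaps were taken from GENCODE v29. Promoter sequences come from RefSeq GRCh38.p14. Some named genes are not reported here.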

Additional observations from a re-analysis of the deposited data

Results flagged for a closer look

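In groups of 9 libraries, a library was singled out when its gap to the nearest other library, on the scale of log2 of CPM plus 0.5, was more than 0.493 of the group's whole range (Dixon's 95% criterion). Of 60 groups looked at, the 30 genes named by size or as siRNA targets at 2 times, 7 had such a library. Chance gives about 1 in 20 for independent groups of like values. These groups mix siRNAs and share the same libraries, so that rate cannot be set against the flags. On that scale all 7 stood at the low end of the 6 h libraries and came from replicate 2. In the siATF4 library of 6 h replicate 2, CHAC1 stood at 3.653 CPM, ADM2 at 1.581 CPM, TRIB3 at 96.96 CPM, MTHFD2 at 219.4 CPM, SLC1A4 at 43.97 CPM and DDIT4 at 116.7 CPM. For CHAC1 the other 8 libraries of 6 h held at least 19.3 CPM, and the 16 h libraries held 1.79 to 3.61 CPM. DDIT4 had 104 to 147 CPM at 16 h, so the library lay inside the 16 h range. LMTK3 stood at 4.075 CPM in the siATF6 library of 6 h replicate 2, where all 16 h libraries held at least 11.9 CPM. HSPA5 in the siATF4 library was 560 CPM, below the 699.9 to 765 CPM of the 16 h libraries. Whether these libraries hold the cells and times their labels give was not tested, since no other file identifies them.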

How the results depend on the processing

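Across siRNAs, the 3628 called genes became 4216 with DESeq2, 3629 with median-of-ratios factors, 3683 with upper-quartile factors, 2838 without a filter, 3761 without the 6 h replicate 2 libraries, 4939 with a replicate block (the replicate number as a covariate), 4137 with the 9 pairs of siRNA and replicate number in the block, and 2810 to 3986 without each library in turn. With all 36 libraries 73 passed, 0 in siATF4, 3 in siATF6 and 1 in siControl, and the siATF4 0 mM library that failed is the only one that this fit adds to the fit of 35, where 2103 passed, 11 in siATF4, 394 in siATF6 and 52 in siControl. Within siATF4, siATF6 and siControl, where 22, 1265 and 274 were called, the replicate block gave 277, 2201 and 834, fits restricted to 6 libraries each gave 0, 631 and 119, and the block without the 6 h replicate 2 libraries gave 948, 2679 and 1169. DESeq2 called 307 in siATF4, 752 in siControl and 3 in the difference of siATF4 from siControl. In siATF4 218 were called without the 6 h replicate 2 libraries and 142 without those of siATF6 and siControl alone. Without each library in turn the counts were 4 to 72 in siATF4, 456 to 1524 in siATF6, 61 to 365 in siControl and 0 to 1 in both differences. Both ends for siATF4 came from its own libraries: 4 without 16 h replicate 3, 6 h replicate 1 or 6 h replicate 3, and 72 without 6 h replicate 2. The low ends for siATF6 and siControl each came without their own 16 h replicate 2.

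Leaving out a whole replicate number, chosen after seeing the data, gave in siATF4, siATF6 and siControl 7, 384 and 39 without number 1 (and 1 in the difference of siATF4 from siControl), 99, 616 and 121 without number 2, and 0, 48 and 0 without number 3, where 1236 passed across siRNAs. Fewer libraries were then tested. Deviations from group means of samples with the same number correlated at 0.483 to 0.572 for number 1, -0.073 to 0.037 for number 2 and 0.345 to 0.383 for number 3, so the numbers do not pair all samples and the block stands here only as an alternative. The 6 h samples of number 3 also correlated with the 16 h samples of number 2, at 0.436 in siControl, 0.294 in siATF4 and 0.328 in siATF6. Deviations within a group are tied to each other, so the values for number 3 do not set that number apart. Samples of number 1 shared deviations across the times, which the main fit leaves out of account. Of 140 named genes past the threshold, 140 kept their call under the block, 138 under DESeq2 (which gave no adjusted p for the other 2), 132 without the 6 h replicate 2 libraries, 113 with 35 libraries and 22 with all 36. The sign turned, in genes that had not passed, for DNAJB9 (0.052) and IL11 (0.179) with number 3 alone, and for CRELD2 without the 6 h replicate 2 libraries (0.011), without number 2 (0.014), with the block and without the 6 h replicate 2 libraries (0.015) and with number 3 alone (0.194). The cause was not tested.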

Other observations

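The cytokine gene CXCL8 varied widely between replicate numbers. CXCL8, the chemokine interleukin 8, stood at 114.6, 1.84 and 2.31 CPM in replicates 1, 2 and 3 of siATF4 at 16 h, and at 168, 6.33 and 2.69 CPM at 6 h. In siATF6 the values were 69.4, 2.20 and 1.22 CPM at 16 h and 144.4, 20.8 and 6.55 CPM at 6 h, and in siControl 121.7, 1.88 and 2.68 CPM at 16 h and 187.7, 35.3 and 3.87 CPM at 6 h. Replicate 1 was thus the highest in all 6 groups. The labels do not say what sets that replicate apart. In replicate 2 the 6 h values of 20.8 CPM in siATF6 and 35.3 CPM in siControl came from the doubtful libraries and lay well above those at 16 h.

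Some lists not described above are given beside the 20.2% of all gene IDs that were called. Of 19 interferon-stimulated genes 1 rose and 2 fell, and 0 and 2 without the 6 h replicate 2 libraries. Of 8 genes of WNT feedback 2 rose, and 0 without those libraries. Of 11 targets of MondoA and ChREBP, the glucose-sensing transcription factors, 1 rose and none fell. Of 13 FOXO targets 2 rose and 2 fell, of 22 matrix, collagen and integrin genes 2 fell, and of 12 host genes of small nucleolar RNAs 2 fell.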
